A study of Mus musculus with 6 samples.

Results

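The probes for miR-6236, miR-6238, miR-6239 and miR-6240 were examined in progenitor cells grown from the bone marrow of diabetic db/db and control db/+ mice. They were taken by name, as 4 of the 1900 mouse miRNA probes on the array, and all 4 were tested. The names were chosen by the measured db/db against db/+ difference of miR-6238 in an earlier look at the same arrays, with its number neighbours added by name, so the differences between the groups given for the 4 probes are descriptions and no p-value is attached to them.

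Mice homozygous for the db allele of the leptin receptor gene become obese and diabetic, and they were compared with heterozygous db/+ litter controls from the same colony. All animals were adult males. The cells of both groups were marrow mononuclear cells kept for 4 days in endothelial growth medium, freed of non-adherent cells and grown for 3 more days, so each sample is the adherent part of a mixed culture and not a sorted cell type. Each group had 3 arrays. Whether every sample was a different animal is not stated, so the spread between arrays may be partly technical.

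MicroRNAs are short RNAs cut from hairpin precursors, and bases 2 to 8 of the mature strand, the seed, pair with target mRNAs. The high numbers of these 4 names show that they were registered late, mostly from deep sequencing. Some entries of that kind resemble pieces of abundant structural RNAs: the sequences of miR-6239 and miR-6240 are like stretches of ribosomal RNA, which is stated here as background, since no ribosomal sequence was compared. An array probe reads whatever RNA pairs with it, and cannot tell a mature miRNA from a fragment of the same sequence.

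The mature sequences that the 4 probes target, as listed in the scanner files, are shown because they are what each signal stands for. The seed is in capitals.
mmu-miR-6236: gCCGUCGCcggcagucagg
mmu-miR-6238: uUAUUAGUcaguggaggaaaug
mmu-miR-6239: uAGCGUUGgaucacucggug
mmu-miR-6240: cCAAAGCAucgcgaaggcccacggcg
All 4 were identical to the mature sequences of Mir6236, Mir6238, Mir6239 and Mir6240 in RefSeq (GRCm38.p6).

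The 4 seeds differed, and the longest run of bases shared by any pair of them was 6, between miR-6236 and miR-6238. The targets differed in composition as well. The miR-6236 target was 19 bases long with 78.9% G and C, and the miR-6240 target 26 bases with 69.2%. The miR-6239 target had 20 bases and 55% G and C, close to the median of 52.2% over all 1900 targets, and the miR-6238 target had 22 bases and 36.4%. Only 16 of the 1900 targets were 26 bases or longer.

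The 4 genes were on 4 chromosomes in the RefSeq build. The mature miR-6238 lay at chr7:53891796-53891817 on the minus strand and miR-6240 at chr5:114851973-114851998 on the plus strand, and neither place was within another annotated gene. The mature miR-6236 lay at chr9:110281353-110281371 on the plus strand, within the span of the long non-coding RNA gene Gm39429. The mature miR-6239 lay at chr14:117953768-117953787 on the minus strand, within the span of Gpc6, which encodes a cell-surface glypican. Both overlaps are by position alone, and the strand of the enclosing gene was not compared. Hairpins were listed for miR-6238 and miR-6240, and are shown with the mature strand in capitals to place it in its precursor.
Mir6238 hairpin: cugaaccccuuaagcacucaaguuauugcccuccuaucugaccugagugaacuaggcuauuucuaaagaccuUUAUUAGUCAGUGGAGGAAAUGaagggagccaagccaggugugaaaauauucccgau
Mir6240 hairpin: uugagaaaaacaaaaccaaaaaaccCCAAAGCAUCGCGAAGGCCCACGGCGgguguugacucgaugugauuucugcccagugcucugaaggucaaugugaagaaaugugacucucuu
The mature strand took bases 73 to 94 of the 129-base Mir6238 hairpin and bases 26 to 51 of the 117-base Mir6240 hairpin.

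Each array gave 1 scanner brightness for each of the 2 spots of a probe, against 4 blank spots. The median of the blank spots lay between 39.1 and 97.2, and detection on an array meant a mean signal above the 95th percentile of the blanks. Of the fixed cell type markers, 4 of 4 for blood cells and 4 of 4 for stromal cells were detected on all 6 arrays, and so was the main arm of the endothelial miR-126a, miR-126a-3p, while miR-126a-5p was detected on 1 array. The red-cell miR-451a was detected on all 6 arrays and miR-144-3p on 1. Of the 6 markers of other tissues, miR-206-3p was detected on all 6 arrays, at 2.83 to 6.95 times the median blank, 2 were detected on 3 or 4 arrays and 3 on fewer. The db/+ replicate 3 array was dim as a whole, with a 75th percentile of the unscaled log2 signal of 6.38 where the other arrays had 6.87 to 7.51.

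miR-6238 read close to the blanks on each db/+ array and far above them on each db/db array. Its mean signal was 165, 251 and 82.1 on db/+ replicates 1, 2 and 3. On db/db replicates 1, 2 and 3 it was 836, 906 and 1975. The groups did not overlap: the db/+ signals were 1.69 to 3.93 times the median blank of their array, and the db/db signals 16.03 to 27.1 times. After normalization the log2 intensity was 7.38 ± 0.46 (SD, n = 3) in the db/+ and 10.17 ± 0.60 (SD, n = 3) in the db/db group. The log2 difference was 2.79 (standard error 0.35), or 6.92-fold. The lowest db/db array was 1.78 above the highest db/+ array on this scale, a distance larger than the whole range within db/+ (0.90) or within db/db (1.20). Among the db/db arrays replicate 3 read highest by either measure. In such mixed cultures a change in the share of a cell type and a change in RNA per cell cannot be told apart. The means of stromal and blood cell markers also differed between the groups, but for most markers the groups overlapped. The mean of 4 of 4 stromal probes was lower in db/db cells, with log2 differences from -0.70 for miR-199a-3p to -0.28 for miR-145a-5p. Their summed normalized intensity was 10792 to 14475 on the db/+ and 5856 to 10452 on the db/db arrays, so the sums did not overlap. For blood cells the mean of 3 of 4 probes was higher in db/db cells, by 0.92 for miR-142a-3p, 0.68 for miR-142a-5p and 0.56 for miR-223-3p, and miR-223-5p had -0.44. Their sum was 6330 to 15455 on the db/+ and 12396 to 18006 on the db/db arrays. Among the single stromal and blood cell probes the groups did not overlap only for miR-214-3p and miR-223-5p, both lower in db/db cells. Over all tested probes the groups did not overlap for 9.65%. In the other marker lists miR-126a-3p had -0.33, miR-451a -0.60 and miR-206-3p -0.17, and the groups overlapped for each. The part of these markers in the miR-6238 reading was not tested. Since an offset of 50 is part of the scale and the db/+ signals were close to the blanks, the fold depends on how the background is treated. With an offset of 10 the log2 difference was 3.18, and with the median blank subtracted in place of normexp it was 3.65, or 12.5-fold.

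The 2 spots of the miR-6238 probe, which sit in separate places on the array, gave the same picture. Among db/+ replicates 1, 2 and 3 the first spot read 174, 217 and 71.1, and among db/db replicates 833, 932 and 2077. In the same order the second spot read 156, 285 and 93.1 in db/+ and 838, 879 and 1874 in db/db. At both places every db/db spot was brighter than every db/+ spot. Both spots read the same samples, so this is no independent support for a difference between the groups. The log2 difference was 2.97 from the first spots and 2.62 from the second. The spots of 1 array differed from each other by at most 0.39 on the log2 scale.

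**Figure D1:**
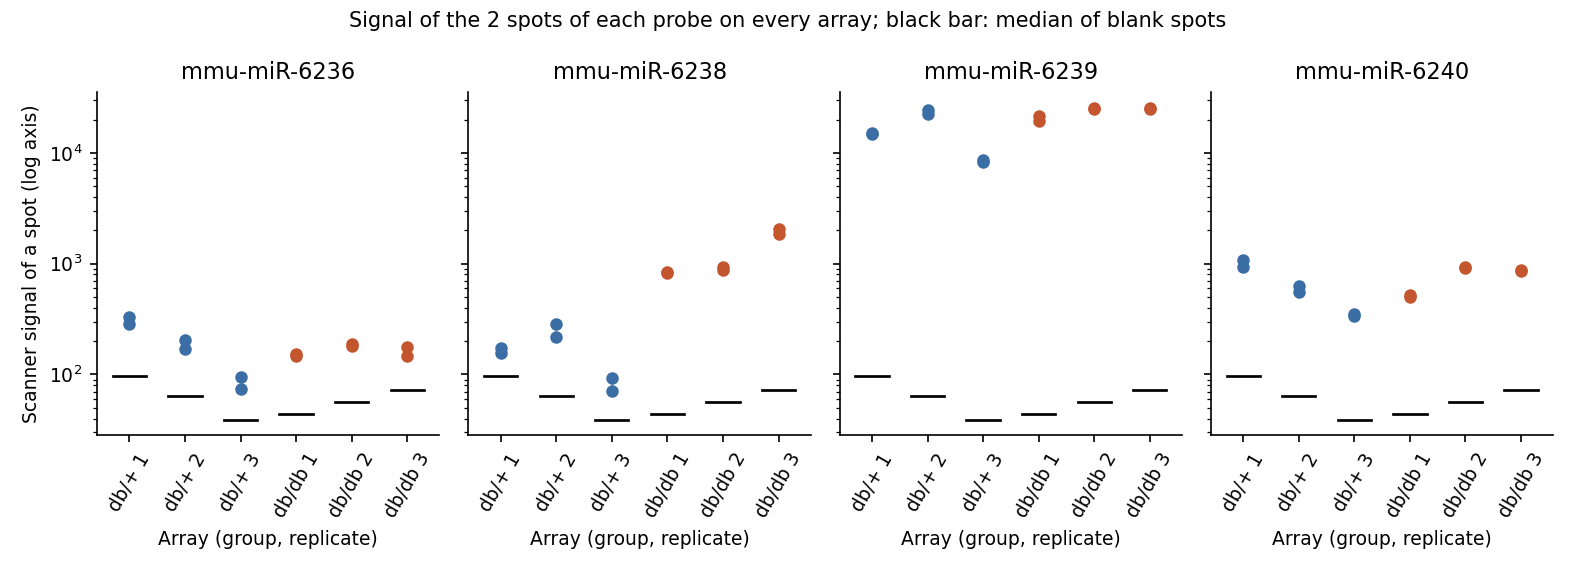
Scanner signal of the 2 spots of each of the 4 probes on the 6 arrays, on a log axis; each point is 1 spot, blue for db/+ and orange for db/db, and the black bars are the median of the blank spots of that array. The miR-6238 spots lie between 71.1 and 285 on the db/+ arrays and between 833 and 2077 on the db/db arrays, while the points of the other 3 probes overlap between the groups.

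miR-6239 was among the 5 brightest of the 1181 tested probes. Its mean signal was 14996, 23471 and 8452 on db/+ replicates 1, 2 and 3 and 20392, 25437 and 25220 on db/db replicates 1, 2 and 3. The db/db signals were close to each other, and db/+ replicate 2 lay within their range while the other db/+ arrays lay below it. The normalized log2 intensity was 13.83 ± 0.40 (SD, n = 3) in the db/+ and 14.49 ± 0.31 (SD, n = 3) in the db/db group. The log2 difference of 0.66 (standard error 0.25) was 1.58-fold, and the groups overlapped, since db/+ replicate 2 at 14.24 was above db/db replicate 2 at 14.21. It ranked 38th of the 1181 tested probes by the size of its difference. No array brought the signal near the blanks, since it was at least 154 times the median blank. On db/db replicate 3 miR-6239 was the brightest miRNA probe, so quantile normalization gave it the top value of the common scale, 14.83. Its signal of 25220 there was below the 25437 of db/db replicate 2, which normalized to 14.21. Without db/db replicate 3 the log2 difference of miR-6239 was 0.49, and with no normalization between arrays it was 0.71.

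miR-6240 did not separate the groups and ranked 158th of the 1181 tested probes by mean normalized log2 intensity. Its mean signal was 1006, 591 and 342 on db/+ replicates 1, 2 and 3 and 512, 922 and 868 on db/db replicates 1, 2 and 3. The highest signal was on a db/+ array. The normalized log2 intensity was 9.28 ± 0.39 (SD, n = 3) in the db/+ and 9.52 ± 0.05 (SD, n = 3) in the db/db group. Its log2 difference was 0.24 (standard error 0.20). The db/db arrays spanned only 0.10 on this scale, against 0.77 for the db/+ arrays.

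miR-6236 was close to the blanks and level between the groups, but ranked 356th of the 1181 tested probes by mean normalized log2 intensity. Its mean signal was 307, 189 and 84.4 on db/+ replicates 1, 2 and 3 and 151, 185 and 162 on db/db replicates 1, 2 and 3, between 2.16 and 3.43 times the median blank. After normalization it measured 7.53 ± 0.12 (SD, n = 3) in the db/+ and 7.50 ± 0.13 (SD, n = 3) in the db/db group. The log2 difference was -0.03 (standard error 0.13). At this signal, with the offset in the scale, a change in the RNA itself would appear smaller than it is. With an offset of 10 the log2 difference was -0.036 (standard error 0.23). With the median blank subtracted in place of normexp it was -0.042 (standard error 0.39).

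With limma over all tested probes 0 of the 4 probes had a Benjamini-Hochberg adjusted p under 0.05, where 0% of the 1181 tested probes did and 59 had an unadjusted p under 0.05. The groups did not overlap for 1 of the 4 probes, miR-6238, where they did not for 9.65% of all tested probes, for 4.06% with db/db higher and for 5.59% with db/db lower. These counts use the contrast with which miR-6238 was picked, and nothing is read from them. The median log2 difference of the 4 probes was 0.45, and that of all tested probes -0.02. The 4 differences ranged from -0.03 to 2.79.

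**Figure D2:**
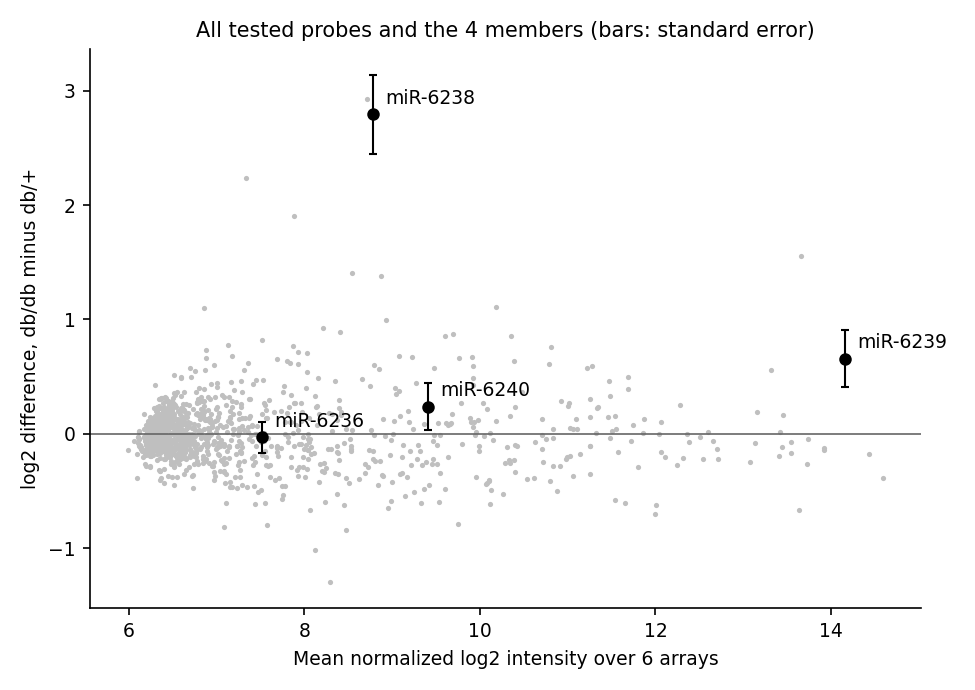
The log2 difference, db/db minus db/+, against the mean normalized log2 intensity over the 6 arrays for the 1181 tested probes (grey) and the 4 members (black, with standard errors). miR-6238 lies at 2.79, next to miR-665-3p at 2.92, while miR-6236, miR-6239 and miR-6240 lie between -0.03 and 0.66.

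The array carried 3 other probes numbered from miR-6230 to miR-6250, all near the blanks. The miR-6237 probe was detected on 1 array and was not tested. The miR-6241 probe read between 1.12 and 2.35 times the median blank, with a log2 difference of 0.22 (standard error 0.16). The miR-6244 probe read between 1.04 and 3.20 times the median blank, with a log2 difference of 0.57 (standard error 0.26). The groups of both overlapped.

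The 4 probes were next set beside the 5S control spots, to see whether the members moved more or less than a ribosomal RNA on the same arrays. 5S RNA is a short structural RNA of the large ribosomal subunit, and the array read it with 5 probes, each in 4 spots. For this comparison the signal was left unscaled between arrays. The mean log2 signal of the 20 spots was 14.80, 14.63 and 14.63 on db/+ replicates 1, 2 and 3 and 14.99, 14.93 and 14.97 on db/db replicates 1, 2 and 3. Every db/db array lay above every db/+ array. The difference was 0.28, or 1.21-fold, at an exact two-sided permutation p of 0.10, the smallest that 3 against 3 arrays can give. With 75th percentile scaling it was 0.27 and the exact permutation p was 0.50.

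The 5 probes for 5S RNA did not move by the same amount. The log2 difference was 0.53 (standard error 0.13) for mmu-5S-b3 and 0.32 (standard error 0.14) for mmu-5S-b1, and for these the groups did not overlap. For mmu-5S-b2, mmu-5S-b4 and mmu-5S-b5 it was 0.21, 0.17 and 0.15, and the groups overlapped. The mean mmu-5S-b1 signal reached 55366 on db/db replicate 1, where the brightest spot of any array read 60018. Whether differences between such bright signals were compressed was not tested.

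Relative to the 5S mean of its own array, miR-6238 was higher in db/db cells, by 2.58 on the log2 scale (standard error 0.56), or 5.97-fold. Its values against 5S were -7.47, -6.61 and -8.00 on db/+ replicates 1, 2 and 3 and -5.26, -5.07 and -4.01 on db/db replicates 1, 2 and 3. The groups did not overlap. This was fixed by the unscaled miR-6238 values, at most 8.02 in db/+ and at least 9.73 in db/db cells. The 5S means differed far less between arrays, at 14.63 to 14.99, so nothing is read from it. The difference relative to 5S was 0.44 for miR-6239, 0.065 for miR-6240 and -0.28 for miR-6236 (standard errors 0.44, 0.47 and 0.43). For these 3 the groups overlapped. The unscaled db/+ values of the 4 probes had SDs of 0.70 to 0.80, those of the 5 single 5S probes 0.08 to 0.29, and for each of the 4 the lowest db/+ value was on replicate 3.

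**Figure D3:**
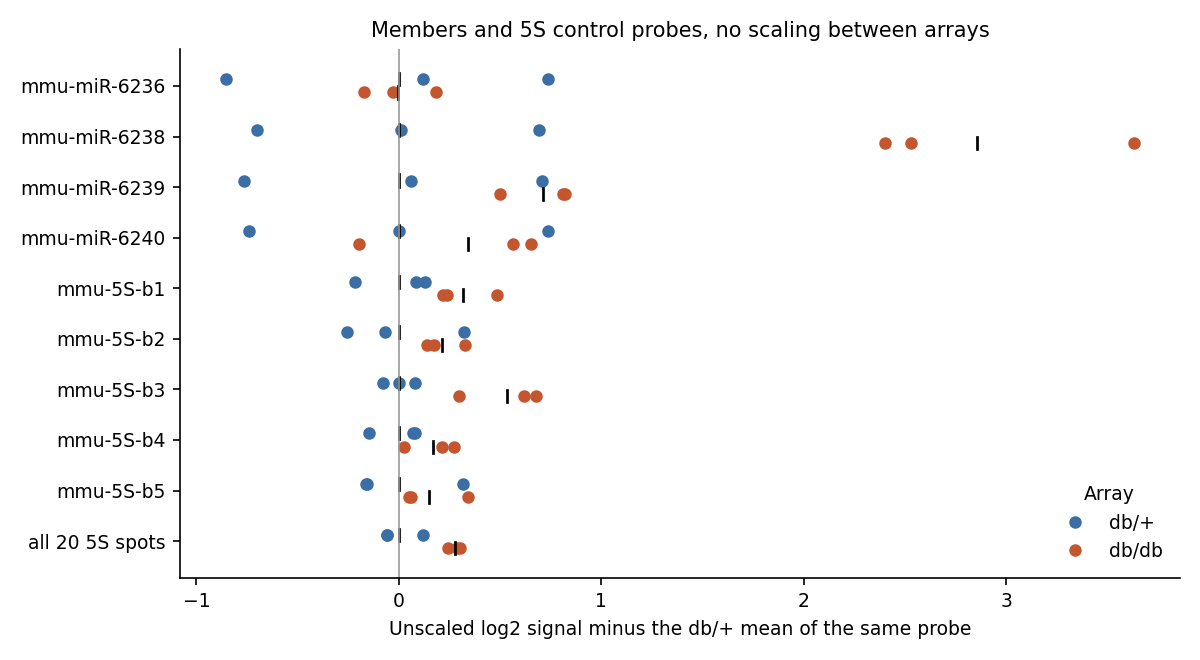
Unscaled log2 signal of the 4 members, the 5 probes for 5S RNA and the mean of all 20 5S spots, each minus the db/+ mean of the same probe; each point is 1 array, blue for db/+ and orange for db/db, and black ticks are group means. The 5S means lie 0.15 to 0.53 apart, miR-6238 lies 2.85 apart, and the db/+ points of the members are spread more widely than those of any single 5S probe.

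Spot position was examined, because a very bright spot can spill onto its neighbours. The miR-6238 and miR-6240 spots flank the bright miR-6239 spots in the same column at both places on the array. In the first place the miR-6239 spot read 14888, 22661 and 8587 on db/+ replicates 1, 2 and 3 and 19353, 25679 and 24921 on db/db replicates 1, 2 and 3, beside miR-6238 readings of 174, 217 and 71.1 and of 833, 932 and 2077. Among the db/+ arrays the neighbours thus had the same order. On db/db replicate 1 the miR-6239 spot was below that of db/+ replicate 2, and the miR-6238 spot above it. The spots to the left of miR-6239, for miR-495-3p, read between 47.4 and 115 on the 6 arrays in the first place and between 50.9 and 108 in the second. Those to the right, for miR-669d-2-3p, read between 59.6 and 297 in the first place and between 71.5 and 323 in the second. The spots to the right of miR-6238, for miR-669c-5p, were brighter than miR-6238 on every array at both places. In the first place they read 3929, 2638 and 633 on db/+ replicates 1, 2 and 3. On db/db replicates 1, 2 and 3 they read 1188, 2790 and 3136. The part of spill-over in the miR-6238 reading was not tested.

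Probes whose targets share bases with the members were compared, to see whether a related sequence showed the same reading. The array held 6 other targets with a run of at least 9 bases in common with miR-6238, all from its middle part, and 4 of them were tested. The longest run was in miR-7007-5p, shown with the shared bases in capitals, and the next line gives miR-6368.
mmu-miR-7007-5p: ucagaagaggCAGUGGAGGAgau
mmu-miR-6368: cugggaagCAGUGGAGGggag
Their log2 differences were 0.03 for miR-7007-5p and -0.17 for miR-6368 (standard errors 0.11 and 0.12). The other tested targets of this kind, miR-8090 and miR-6950-5p, had 0.08 and 0.12. The groups overlapped for all 4. All were dim, with a mean normalized log2 intensity in db/+ cells of 6.79 for miR-7007-5p, 7.11 for miR-6368, 6.47 for miR-8090 and 6.42 for miR-6950-5p. At such a signal the offset makes a change appear smaller than it is. No other target on the array had the seed of miR-6238.

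The seed of miR-6239 was shared by 1 other target and that of miR-6240 by 1, shown with the shared run in capitals.
mmu-miR-6351: UAGCGUUGcucagggagcacaug
mmu-miR-330-3p: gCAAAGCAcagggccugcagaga
miR-6351 shares the first 8 bases with miR-6239 and read close to the blanks, at a normalized log2 intensity of 6.56 in db/+ and 6.39 in db/db cells, with a log2 difference of -0.17 (standard error 0.16). miR-330-3p, with the seed of miR-6240, was also dim, at 6.43 in db/+ and 6.48 in db/db cells. It had a log2 difference of 0.05 (standard error 0.13).

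Across the 6 arrays the normalized values of miR-6238 and miR-6239 varied together, with a Pearson r of 0.90, while miR-6239 and miR-6236 varied in opposite directions, with -0.70. The other pairs lay between -0.38 and 0.35. These are descriptions over 6 arrays of 2 groups, and a difference between the groups in both probes of a pair is part of each r. The tested probes most like each member by Pearson r over the 6 arrays were miR-7036b-5p (0.94), miR-7651-5p (0.94) and miR-7669-3p (0.94) for miR-6238, and miR-1195 (0.98), miR-3970 (0.97) and miR-7052-5p (0.97) for miR-6239. For miR-6236 they were miR-6973b-5p (0.96), miR-7011-5p (0.95) and miR-7116-5p (0.94), and for miR-6240 miR-6347 (0.93), miR-712-3p (0.91) and miR-7035-5p (0.90). An r over 0.9 was reached by 23 probes for miR-6239, 8 for miR-6238, 5 for miR-6236 and 3 for miR-6240.

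The probes most like miR-6238 moved far less than it did, with log2 differences of 0.50, 0.31 and 0.22 in the order given. Their mean normalized log2 intensity was only 6.71, 6.35 and 6.82, where the offset makes a change appear smaller than it is. The probes most like miR-6239 had differences of 0.64, 1.38 and 0.18. The db/db minus db/+ differences of the brightest probes beside miR-6239 were -0.38 for miR-709, -0.17 for miR-690, -0.14 for miR-5126 and -0.13 for miR-29a-3p, where miR-6239 had 0.66.

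The authors' deposited table holds processed values of the same 6 arrays, made by a method not given in the sources used here. In it the groups did not overlap for miR-6238 either, which is no independent support. The table listed 47.0, 141 and 98.1 for db/+ replicates 1, 2 and 3 and 1081, 663 and 1687 for db/db replicates 1, 2 and 3. Its miR-6239 values were 9593, 19180 and 14750 in db/+ and 25785, 18845 and 29603 in db/db cells, with db/db replicate 2 again below db/+ replicate 2. On log2 of these values plus 16 the differences were 3.38 for miR-6238, 0.80 for miR-6239, 0.36 for miR-6240 and -0.02 for miR-6236.

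**Figure D4:**
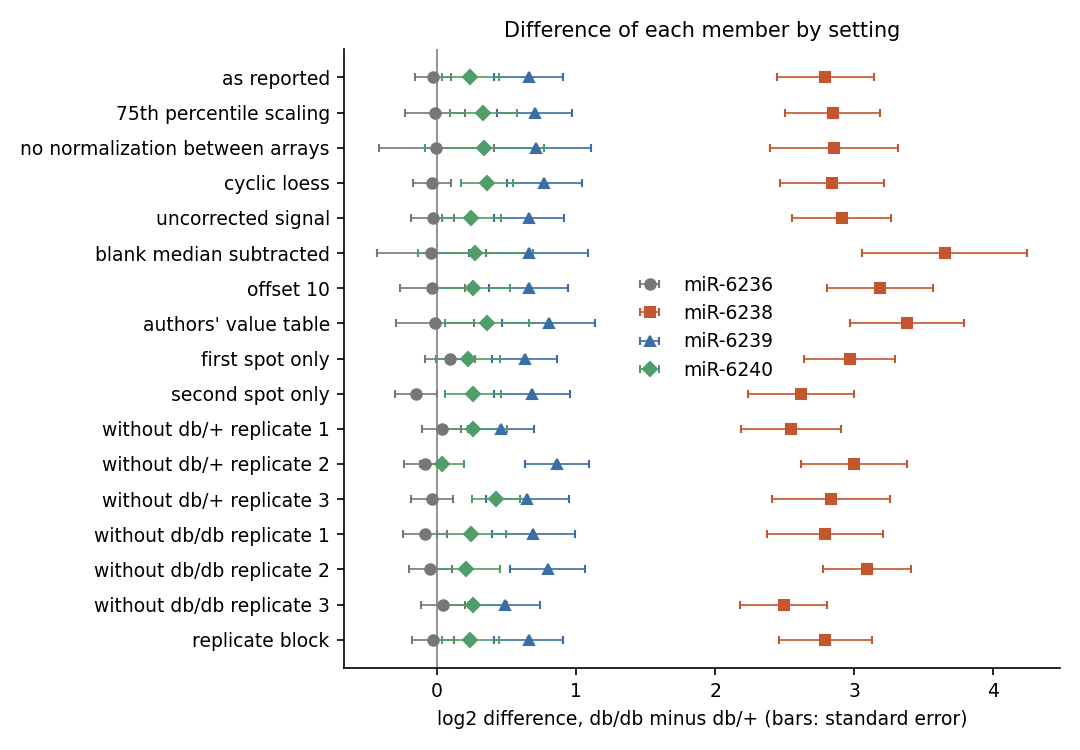
The log2 difference, db/db minus db/+, of each of the 4 probes as reported and under 16 other settings, with standard errors. miR-6238 stays between 2.49 and 3.65, miR-6239 between 0.46 and 0.86 and miR-6240 between 0.04 and 0.42, while miR-6236 lies on both sides of 0.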

How the data were processed

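Total RNA (1 µg per sample) was tailed, stained with Cy5 and hybridised by a service provider, per the labels' protocols. Per the file headers, a scanner file lists the median intensity of every spot, linear and without a local background. The authors also deposited a table of processed linear intensity values by probe, made with a method not given in the sources used here.

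Spot signals of all 3968 spots were corrected with normexp (offset 50), put on the log2 scale, quantile-normalized over the mouse miRNA spots and averaged by probe (limma 3.58.1, R 4.3.3). Tests covered the 1181 probes detected on 3 or more of the 6 arrays. The detection limit was uneven, passing 1855 probes on db/db replicate 1 and 751 on db/db replicate 3. On db/db replicate 3 the median miRNA signal of 65.7 lay below the median blank of 73.0. Multiples of the blank are therefore only roughly comparable between arrays. Groups were compared with lmFit and eBayes, with Benjamini-Hochberg adjustment at 0.05. For 5S RNA the corrected signal was not scaled between arrays, and standard errors there and for values relative to 5S come from the 3 arrays of each group. The fit was tested on simulated data. Alternatives changed the background correction, scaling, offset, probe filter, variance model, spots and arrays used, or took the deposited table. Precision is limited by the small number of arrays.

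The members, lists and tests were chosen with earlier results of these data known. Named beside the members were the 3 probes most correlated with each, the 5S and blank controls, other probes numbered miR-6230 to miR-6250 and the 5 brightest; targets sharing a seed or a run of 9 bases, miR-665-3p and spot neighbours were added later. Sequences come from the scanner files and from RefSeq (GRCm38.p6). No 2 arrays held the same values. Samples with the same replicate number did not vary together (correlations of deviations -0.04, -0.0029 and 0.04), so the number was not taken as a pairing. Plots used matplotlib 3.10.9 (Python 3.11.15).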

Additional observations from a re-analysis of the deposited data

How the results depend on the processing

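Over 16 other settings each, the differences of miR-6238, miR-6239 and miR-6240 were above 0 throughout, and that of miR-6236 was above 0 in 3 and below in 13. For miR-6238 the value moved by more than the spread between arrays in 2 settings, to 3.65 with the blank median subtracted and to 3.38 in the authors' deposited table; the cause was not tested. Leaving out each array in turn gave 2.49 to 3.09 for miR-6238, 0.46 to 0.86 for miR-6239, 0.036 to 0.42 for miR-6240, the lowest without db/+ replicate 2, -0.086 to 0.044 for miR-6236 and 0.25 to 0.33 for 5S. The number of probes passing was 0 as reported and 0 with the replicate number as a block, and between 0 and 3 with each array left out, with 3 without db/db replicate 2. It was 1 with 75th percentile scaling, offset 10, the authors' table, the first spot only or probes detected on all 6 arrays, and 2 with an intensity trend in eBayes. The passing probes included miR-6238, which was picked by this contrast, so nothing is read from it, and the cause of these changes was not tested. The number of probes whose groups do not overlap was 114 as reported, 49 with 75th percentile scaling, 8 with no normalization between arrays and 60 among probes detected on all 6 arrays, where fewer were tested. Signals of miR-6236, and of miR-6238 in db/+ cells, were under 4 times the blanks, which limits their precision.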
